A study of Homo sapiens with 66 samples.

Results

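The genes examined were those for erythropoietin and for iron handling: EPO, TFRC, TF, CP, HMOX1, SLC40A1, SLC11A2, HAMP, FTH1 and FTL. A peak was taken for one of these 10 genes when its centre lay in the gene body, or within 50 kb of a transcription start site or gene end and nearer to that gene than to any other annotated gene. Of 131425 peaks in 50 lists, 67 met this rule, and they merged into 13 sites at 9 of the 10 genes. The rule lets any annotated gene, including non-coding RNAs and pseudogenes, compete for a peak. When only protein-coding genes competed, 187 peaks at 26 sites of all 10 genes were taken, and the 13 further sites are described alongside and named as such.

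The peaks come from chromatin immunoprecipitation with sequencing (ChIP-seq) with antibodies to HIF-1α, HIF-2α and their common partner HIF-1β, in duplicate. HKC-8, a human renal tubular epithelial line, was kept at 0.5% oxygen, with harvest after 6, 16 and 48 h, or at 3% oxygen for 6 h (24 lists, all parental cells). A second HKC-8 experiment at 0.5% oxygen for 16 h compared wild-type cells with cells lacking HIF-1α or HIF-2α, each knockout being 1 CRISPR-Cas9 clone, without the antibody to the deleted subunit (14 lists). RCC4, a renal carcinoma line in which HIF is active in normoxia because VHL is lost, gave 6 lists without added hypoxia, and HepG2, a hepatocellular carcinoma line, gave 6 lists after 16 h at 0.5% oxygen. Differences between lines cannot be told apart from differences between experiments or, for RCC4, between oxygen levels.

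HIF is a heterodimer of an oxygen-labile α-subunit and HIF-1β that binds hypoxia response elements with the core ACGTG or GCGTG. Erythropoietin, the hormone that drives red cell production, was the gene through which HIF was first found, and red cell production depends on iron. Hepcidin from the liver holds iron back in cells, transferrin carries it in plasma, and ferritin stores it within cells. Genes of uptake, transport and haem breakdown are known targets of hypoxia in liver, gut and other tissues.

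The lists held 237 to 1793 peaks in the oxygen and time experiment, 915 to 8279 in the knockout experiment, 911 to 5680 in RCC4 and 3470 to 6851 in HepG2. A site that is not called is therefore not shown to be unbound, least of all in the shortest lists. The HepG2 libraries did not group by antibody. The replicates labelled HIF-1α shared 35.0% of the shorter list and those labelled HIF-2α 25.9%, whereas HIF-1α replicate 2 and HIF-2α replicate 1 shared 50.1%, so HepG2 antibodies are given below as labelled.

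The reference sequences shown are the 201 bases around the median peak centre at some of the sites called in at least 4 lists. They are read on the strand of the gene from GRCh37. Among the sites left out are the FTL promoter site and the CP site closer to the gene, whose window held no core. At TFRC, bases in annotated exons are left out. Capitals mark the response element core ACGTG or GCGTG on either strand (its reverse complement reads CACGT or CACGC). The first group shows the sites found in HepG2 alone and the second the sites found in several lines or in HKC-8.
EPO, past the 3′ end of the gene, chr7:100321357-100321557, plus strand: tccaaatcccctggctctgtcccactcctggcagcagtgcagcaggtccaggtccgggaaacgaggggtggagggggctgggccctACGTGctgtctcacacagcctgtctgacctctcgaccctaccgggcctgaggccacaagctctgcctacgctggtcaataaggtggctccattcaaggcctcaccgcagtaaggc
TF, upstream, chr3:133461565-133461765, plus strand: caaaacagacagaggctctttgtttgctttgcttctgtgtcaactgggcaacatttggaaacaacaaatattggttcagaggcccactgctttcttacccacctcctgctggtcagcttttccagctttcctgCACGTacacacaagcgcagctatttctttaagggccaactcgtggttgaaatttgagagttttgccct
SLC11A2, upstream, chr12:51430040-51430240, minus strand: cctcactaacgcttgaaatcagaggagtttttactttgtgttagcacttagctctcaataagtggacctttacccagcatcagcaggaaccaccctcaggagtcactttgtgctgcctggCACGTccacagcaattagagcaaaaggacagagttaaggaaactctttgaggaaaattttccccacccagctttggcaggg
SLC40A1, downstream of the gene, chr2:190406962-190407162, minus strand: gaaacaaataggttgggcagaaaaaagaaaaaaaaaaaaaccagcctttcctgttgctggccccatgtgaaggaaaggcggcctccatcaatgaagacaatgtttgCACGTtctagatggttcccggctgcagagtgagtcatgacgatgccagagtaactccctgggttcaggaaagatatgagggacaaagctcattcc
TFRC, promoter, chr3:195809025-195809096, minus strand: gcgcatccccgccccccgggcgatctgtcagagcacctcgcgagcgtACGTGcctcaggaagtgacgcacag
CP, upstream, chr3:148943037-148943237, minus strand: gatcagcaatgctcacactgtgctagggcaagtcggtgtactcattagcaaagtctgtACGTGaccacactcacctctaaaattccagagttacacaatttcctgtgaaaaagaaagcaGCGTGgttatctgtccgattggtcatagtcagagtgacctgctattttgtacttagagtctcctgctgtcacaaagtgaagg
FTH1, far upstream, chr11:61780670-61780870, minus strand: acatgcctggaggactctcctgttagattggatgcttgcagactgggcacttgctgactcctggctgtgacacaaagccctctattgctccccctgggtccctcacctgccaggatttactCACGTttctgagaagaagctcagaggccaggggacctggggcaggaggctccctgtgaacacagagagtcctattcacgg
FTH1, near upstream, chr11:61739372-61739572, minus strand: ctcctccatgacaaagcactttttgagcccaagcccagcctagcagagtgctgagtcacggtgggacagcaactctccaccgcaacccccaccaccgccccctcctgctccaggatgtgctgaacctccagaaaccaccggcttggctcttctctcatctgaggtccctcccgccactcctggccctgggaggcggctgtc

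The windows at EPO, TF, SLC11A2, SLC40A1, TFRC and the far FTH1 site each held 1 core, and the CP window held 2. The SLC40A1 window also held 1 AP-1 motif. The near FTH1 window held no core but held 1 copy of that motif (searched as TGACTCA and TGAGTCA, which are each other's reverse complement). Of the 26 sites, 15 had a core within 201 bases and 4 had an AP-1 motif. Among the 12 sites called in at least 4 lists, 10 had a core (83.3%), against 61.1% of all 8584 merged sites called that often and 34.0% of all 50169 merged sites. AP-1 motifs were in 3 of those 12 sites, against 15.5% of the 8584.

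Peak centres were compared with the core nearest to the median centre of each site. At EPO, the 6 peak centres were between 71 bases before and 37 bases after the middle of the core, with a median distance of 26 bases, while the peaks themselves were 1038 to 1384 bases wide. At CP, 27 of 29 centres were within 100 bases of the core. At TFRC the spread was wider, with 26 of 41 centres within 100 bases. The core used at each site is the one nearest to the median centre, so some closeness follows from that choice.

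**Figure D1:**
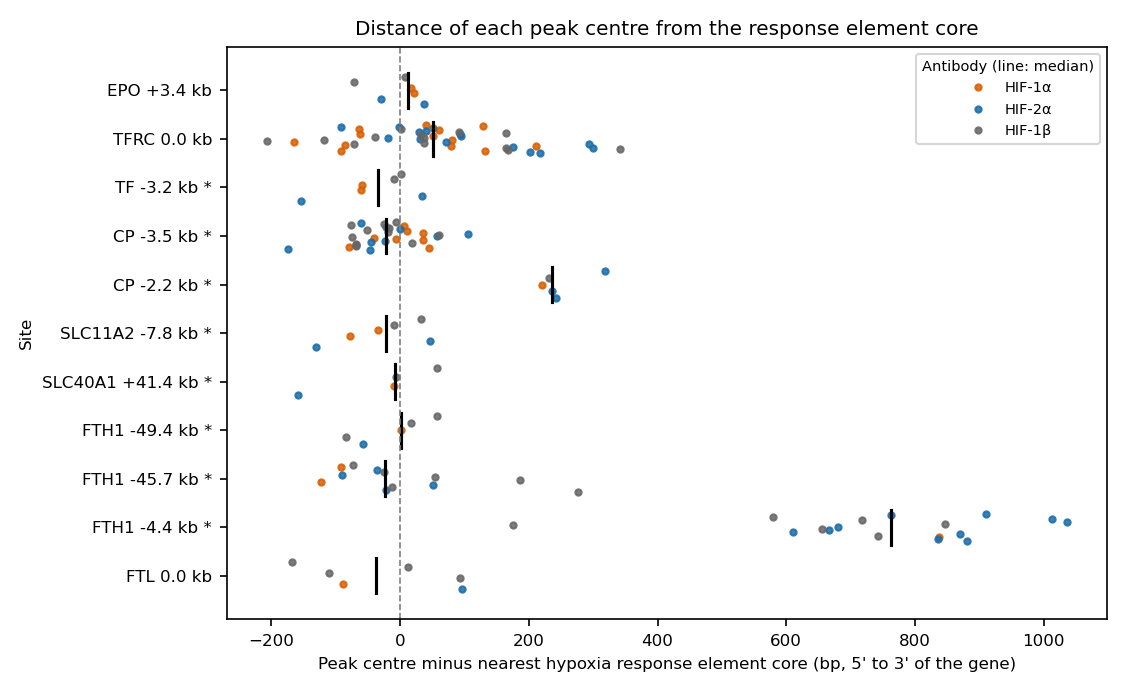
Distance in base pairs of each list's peak centre (one point per list, coloured by antibody) from the response element core nearest to the median centre, by site, with 5′ to 3′ of the gene running left to right; black bars are medians and * marks sites taken only where protein-coding genes compete. Centres at EPO lie between -71 and 37 bp, whereas those at the near FTH1 site lie 176 to 1036 bp from theirs.

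By the rule in which every gene competes, 9 of 10 genes had a peak in at least 1 of 50 lists, as did 55.4% of 20163 protein-coding genes treated in the same way. With protein-coding competitors alone it was 10 of 10, against 62.1%. HepG2 gave 6 of 10 genes, against 31.5%, and 10 of 10 under the wider reading, against 36.6%. RCC4 gave 3 of 10 (26.0%) and 4 of 10 (29.7%). The oxygen and time experiment gave 2 of 10 (30.2%) and 7 of 10 (36.0%), and the knockout experiment 5 of 10 (24.1%) and 6 of 10 (28.3%). Only EPO, TFRC and CP had a peak in both replicates of at least 1 group (background 23.1%). Under the wider reading the count was 9 of 10 (27.8%), every gene except HAMP.

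**Figure D2:**
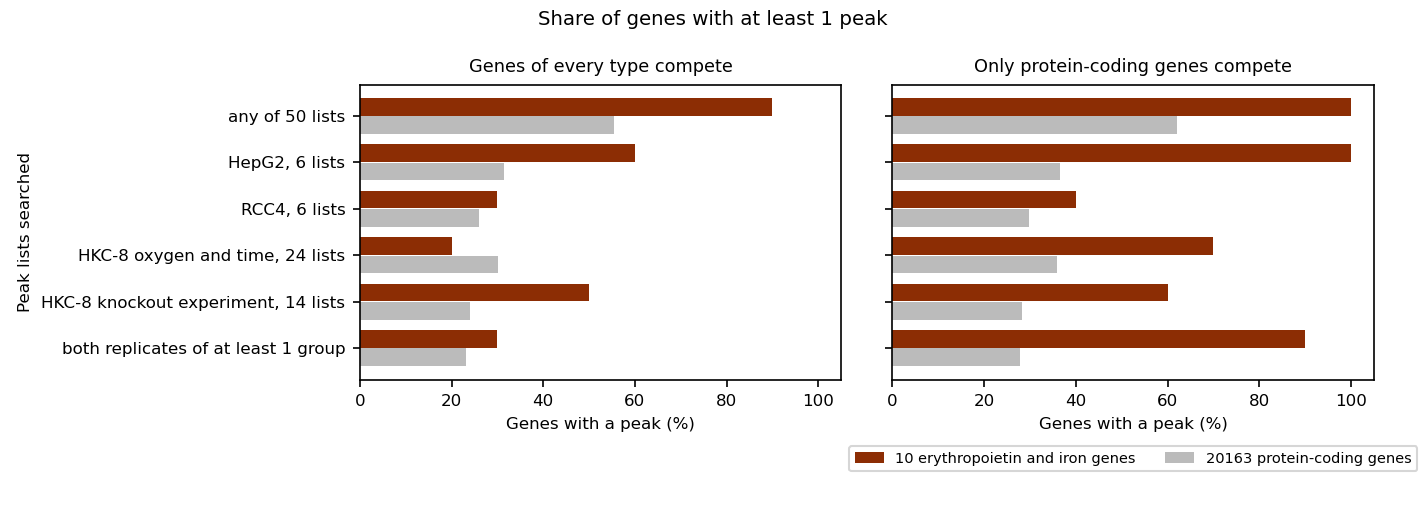
Share (%) of the 10 erythropoietin and iron genes and of all 20163 protein-coding genes with at least 1 peak, by set of lists; left, genes of every type compete for a peak, right, protein-coding genes alone. In HepG2 the 10 genes reached 6 and 10 of 10, against 31.5% and 36.6% of all genes, whereas in RCC4 they reached 3 and 4 of 10, against 26.0% and 29.7%.

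The readings differ in which gene counts as nearest. The CP upstream site lies in an exon of the unnamed long non-coding RNA gene ENSG00000286714, and the TF upstream site in an intron of ENSG00000291042. At SLC11A2 a U6 small nuclear RNA copy (RNU6-1273P) is 1142 bases away, and at the far FTH1 site a processed pseudogene is 696 bases away. The site near SLC40A1 is 1919 bases from the non-coding gene ENSG00000287418. No protein-coding gene is nearer than the gene named at any of these sites.

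EPO (chr7:100318091-100321323, plus strand) was bound in HepG2 at one main site. The site, chr7:100320776-100322159, was centred 134 bases past the annotated end of the gene, in intergenic sequence, the position of the known 3′ enhancer through which hypoxia induces the gene. All 6 HepG2 lists called it, and none of the 44 lists of the kidney lines did. By score it ranked 152 of 6171 and 412 of 3986 peaks with HIF-1β. With the libraries labelled HIF-1α it ranked 102 of 3470 and 129 of 6851, and with those labelled HIF-2α 359 of 5187 and 159 of 4499. It thus lay in the top 1.88% to 10.3% of each list. The longest kidney list, from wild-type HKC-8 with HIF-1β, held 8279 peaks and had no peak here. The part of list length or read depth in these absent calls was not tested.

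The HepG2 share of lists exceeded that of RCC4 and wild-type HKC-8 by 100 percentage points at EPO (6 of 6 against 0 of 12, exact permutation test within antibody, two-sided, p = 0.000296, Benjamini-Hochberg adjusted p = 0.00559 over 6380 sites). Of all sites tested, 15.6% were called higher in HepG2. EPO had no kidney call, so it met the minimum of 4 calls through HepG2 alone, as did TF, SLC11A2 and SLC40A1 below. For such a site, being tested and passing are not separate results. Here and at the other genes this comparison takes lists as the unit. Lists of one line are not independent samples of lines, and HIF-1β is the common partner of both α-subunits. The p-values therefore do not measure the spread between lines. EPO was the only site of the 3 tested under the rule in which every gene competes that passed. With 1 kidney line left out the difference was still 100 points but the adjusted p was 0.0634 without RCC4 and 0.0648 without wild-type HKC-8, in designs where none of the 5590 and 3122 sites tested passed. With either HepG2 replicate left out, EPO had 3 calls, fewer than the 4 needed for a test. A second EPO peak, at chr7:100317116-100319521 over the promoter and 5′ UTR, was called once, in the library labelled HIF-1α replicate 2 of HepG2, at rank 4088 of 6851.

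TFRC, the receptor that takes up transferrin-bound iron, was the most widely bound of the genes. Its promoter site, chr3:195807931-195809789, centred 28 bases inside the gene in its first exon, was called in 41 of 50 lists: 13 of 16 with HIF-1α, 14 of 16 with HIF-2α and 14 of 18 with HIF-1β. HepG2 gave 6 of 6 lists, RCC4 5 of 6 and HKC-8 30 of 38. In HKC-8 after 6 h at 0.5% oxygen the ranks were 132 of 1496 and 68 of 1319 with HIF-1α, 332 of 1417 and 111 of 1493 with HIF-2α, and 262 of 1284 and 433 of 1271 with HIF-1β. After 16 h they were 171 of 1313 and 214 of 951, 152 of 1198 and 305 of 1051, and 336 of 1357 and 610 of 1793 in the same order. All 12 of these lists had the site, none of them below the top 34.1% by rank.

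After 48 h the TFRC site was called in 3 of 6 lists, all replicate 1, at rank 99 of 1073 with HIF-1α, 273 of 1383 with HIF-2α and 471 of 1066 with HIF-1β. The replicate 2 lists without it held 1073, 237 and 626 peaks. At 3% oxygen for 6 h it was called in 4 of 6 lists, at rank 164 of 1223 with HIF-1α, 97 of 977 with HIF-2α, and 613 of 1205 and 245 of 944 with HIF-1β. The lists without it held 656 and 558 peaks.

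The differences in share of lists at TFRC were -33.3 percentage points for 3% against 0.5% oxygen (exact permutation p = 0.5, adjusted p = 1 over 483 sites), -50 points for 48 h against 6 h (exact permutation p = 0.25, adjusted p = 1 over 495 sites) and 0 points for 16 h against 6 h (exact permutation p = 1, adjusted p = 1 over 755 sites). No site in the genome passed in these 3 comparisons (0.0% in each). At an unadjusted exact permutation p below 0.05 there were 9 sites for oxygen, 2 for 48 h and 5 for 16 h. The smallest p such a design can give is 0.00926. TFRC was the one site of the 10 genes with enough calls to be tested there, so the data do not show that oxygen level or duration left the other genes unaltered.

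In wild-type HKC-8 cells of the second experiment, at 16 h and the same oxygen but with longer lists, the TFRC site was called in 4 of 6 lists, at rank 1207 of 4537 and 5008 of 6749 with HIF-2α, 939 of 1535 with HIF-1α replicate 2 and 2968 of 8279 with HIF-1β replicate 2. The HIF-1β replicate 1 list lacked it although it held 6199 peaks. The ranks were 263 of 5680 and 216 of 2120 with HIF-1α in RCC4, and 503 of 4317 and 504 of 2990 with HIF-2α. The share of lists in HepG2 exceeded that of the kidney lines by 25 points (exact permutation p = 0.511, adjusted p = 0.601).

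TF encodes transferrin, the plasma iron carrier made by the liver. Its main site belonged to the wider reading, at chr3:133460920-133462357, 3.22 kb upstream of the gene start. All 6 HepG2 lists called it and no other list did. It ranked 227 of 6171 and 803 of 3986 with HIF-1β, 77 of 3470 and 171 of 6851 with the libraries labelled HIF-1α, and 445 of 5187 and 21 of 4499 with those labelled HIF-2α. The last is the highest relative rank of any peak at the 10 genes, in the top 0.467% of its list. The difference from the kidney lines was 100 points (adjusted p = 0.00559, exact permutation test). No site in the genome passed with 1 kidney line left out. The wider reading, which admits this site, was applied to this test after seeing the data. The other TF sites were called once each, near the promoter in 1 HepG2 library labelled HIF-2α at rank 1572 of 4499 and within the gene in 1 HKC-8 HIF-1α list at rank 199 of 951.

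CP encodes ceruloplasmin, the copper ferroxidase that loads iron onto transferrin. Its strongest site, chr3:148942458-148943825, also of the wider reading, lay 3.52 kb upstream of the gene start and was called in 29 of 50 lists. HepG2, RCC4 and wild-type HKC-8 each gave 6 of 6, and the knockout clones 8 of 8. Ranks in HepG2 were 120 to 269, in the top 2.67% to 7.75% of each list. In RCC4 they were 633 of 5680 and 221 of 2120 with HIF-1α, 274 of 4317 and 96 of 2990 with HIF-2α, and 385 of 911 and 252 of 1305 with HIF-1β. In the oxygen and time experiment, the site was called in 3 of 24 lists, including 2 of 6 at 0.5% oxygen for 16 h, the condition under which all 6 wild-type lists of the second experiment had it.

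Closer to CP, a further site 2172 bases upstream (chr3:148941233-148942376) was called in 4 HepG2 lists and 1 RCC4 list, with a difference of 58.3 points that did not pass (adjusted p = 0.0966, exact permutation test) but passed with rank percentiles in place of calls (adjusted p = 0.0335). With rank percentiles, 24.55% of all sites passed in either direction, against 1175 of 6380 in the main test. The sites of CP under the rule in which every gene competes were weaker. The first, at chr3:148892391-148893285 in an intron and 1274 bases from the neighbouring gene HPS3, was called in wild-type HKC-8 with HIF-2α, at rank 2234 of 4537 and 3437 of 6749, and with HIF-1β replicate 2, at rank 6915 of 8279. Another intronic site was called in 3 lists and the promoter site in 2 HepG2 lists.

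SLC11A2 encodes the divalent metal transporter DMT1, which brings iron in from the gut lumen and from endosomes. The site of the wider reading at chr12:51429537-51430792, 7.79 kb upstream of the gene start, was called in all 6 HepG2 lists and no other. It ranked 643 of 6171 and 486 of 3986 with HIF-1β, 420 of 3470 and 633 of 6851 with the libraries labelled HIF-1α, and 712 of 5187 and 613 of 4499 with those labelled HIF-2α. These 6 relative ranks were close together, from the top 9.24% to the top 13.7%. The difference from the kidney lines was again 100 points (adjusted p = 0.00559, exact permutation test), with the same limits as at TF. Within the gene, 1 intronic peak was called in 1 list, HIF-2α in HIF-1α knockout cells, at rank 6372 of 6540.

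SLC40A1 encodes ferroportin, the iron exporter of cells, and HAMP encodes hepcidin, the hormone that removes ferroportin from the membrane. SLC40A1 had no peak when every gene competed. Under the wider reading, chr2:190406393-190407777, 18254 bases beyond the 3′ end of the gene, was called in 4 of 6 HepG2 lists, at rank 1618 of 6171 and 755 of 3986 with HIF-1β, 2266 of 6851 with a library labelled HIF-1α and 690 of 5187 with one labelled HIF-2α. No kidney list had it, a difference of 66.7 points (adjusted p = 0.0410, exact permutation test), which did not pass within replicate numbers (adjusted p = 0.0917). HAMP had 1 site, chr19:35772446-35773902, in an intron of the annotated gene and 239 bases upstream of its nearest internal start. It was called in 3 HepG2 lists, 1 for each antibody label, at rank 5076 of 6171 with HIF-1β, 2834 of 6851 with HIF-1α and 2002 of 5187 with HIF-2α. With 3 calls it fell under the 4 needed for a test.

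**Figure D3:**
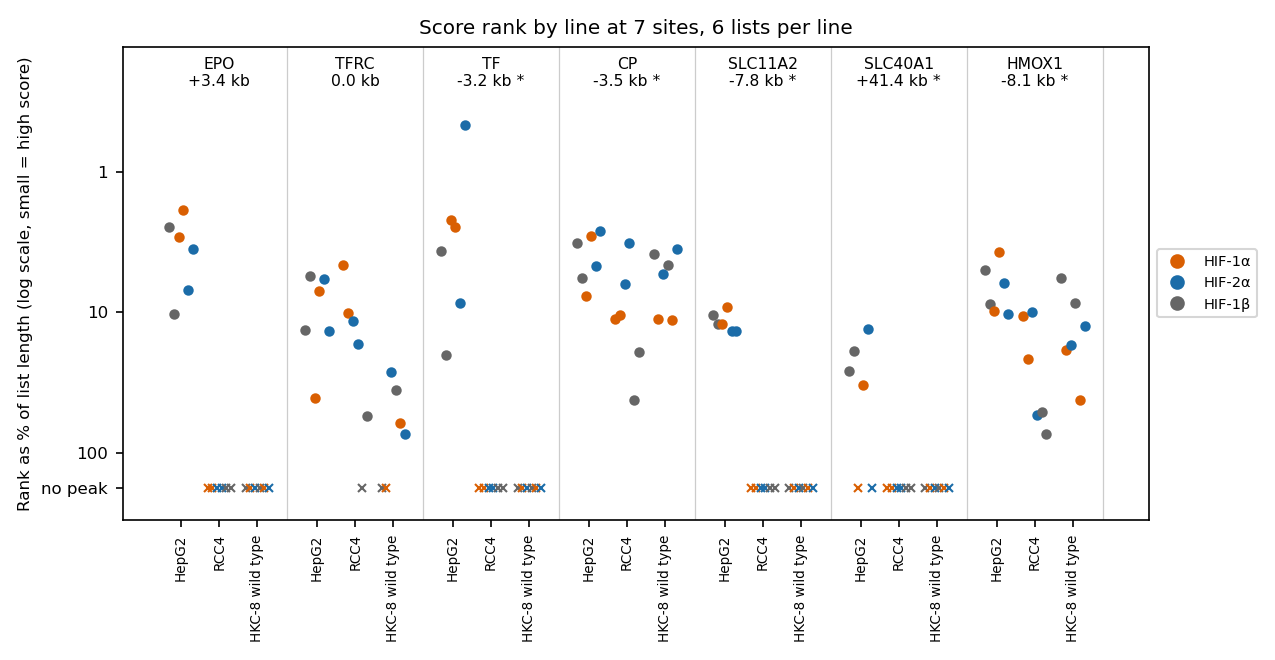
Rank of the peak as a percent of list length (log axis, smaller is higher) at 7 sites in HepG2, RCC4 and wild-type HKC-8 of the knockout experiment, with 6 lists per line coloured by antibody label and crosses where no peak was called. EPO, TF and SLC11A2 had a peak in all 6 HepG2 lists and in none of the 12 kidney lists, whereas CP and HMOX1 had one in all 18.

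FTH1 and FTL encode the heavy and light chains of ferritin, the iron store of cells. The FTL promoter site, chr19:49467809-49469377, 47 bases upstream of the gene start, was called in 6 lists. When every gene competed, 3 of these 6 peaks had centres nearer to FTL than to the neighbouring non-coding gene ENSG00000267898. Of the 6 lists, 4 were from HepG2, at rank 1555 of 6171 and 1305 of 3986 with HIF-1β, 1768 of 6851 with a library labelled HIF-1α and 1230 of 5187 with one labelled HIF-2α. The other 2 were HKC-8 HIF-1β lists, at rank 770 of 1271 and 8247 of 8279. The HepG2 difference was 58.3 points and did not pass (adjusted p = 0.0966, exact permutation test). It passed in the exact permutation test when only the upper 50% of each list was kept (adjusted p = 0.0316), when peaks scored below 100 were left out (adjusted p = 0.0390) and with rank percentiles in place of calls (adjusted p = 0.0335). Of all sites, 26.39%, 19.25% and 24.55% passed in these settings, in that order and in either direction, against 1175 of 6380 in the main test.

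FTH1 showed only 1 peak when every gene competed, in HIF-1α knockout cells with HIF-2α at rank 6094 of 6540, in sequence shared with an exon of BEST1. Under the wider reading it had 3 upstream sites. The near site, chr11:61738422-61741679, 4.37 kb upstream, was called in 17 lists: 10 of 16 with HIF-2α, 6 of 18 with HIF-1β and 1 of 16 with HIF-1α, the last being HepG2 replicate 2. In RCC4 both HIF-2α lists had it, at rank 1501 of 4317 and 476 of 2990, and neither HIF-1α list did. Wild-type HKC-8 gave the same split, with both HIF-2α lists having it at rank 1376 of 4537 and 834 of 6749, and neither HIF-1α list.

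Over the 7 conditions with both antibodies, the near FTH1 site was called in 8 of 14 lists with HIF-2α against 1 of 14 with HIF-1α, a difference of -50 points for HIF-1α minus HIF-2α (exact permutation test within condition, two-sided, p = 0.00694, adjusted p = 0.175 over 3302 sites), and so did not pass. Without HepG2 the difference was also -50 points (adjusted p = 0.140, exact permutation test). No site in the genome passed this comparison (0.0% of 3302, with 365 at an unadjusted exact permutation p below 0.05). With rank percentiles in place of calls 182 sites passed, none of them at the 10 genes.

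HIF-1α and HIF-2α differed by 1 list or less at the other tested sites except one, with 11 and 12 of 14 lists at TFRC, 7 and 7 at the HMOX1 upstream site, 6 and 7 at the CP upstream site, and 2 and 2 at each of EPO, TF and SLC11A2, where all 4 lists were from HepG2. The CP site 2172 bases upstream had 1 of 14 with HIF-1α and 3 of 14 with HIF-2α, a difference of -14.3 points. The far FTH1 site also had 2 and 2 of 14 lists, all from wild-type HKC-8. Its rank percentiles there were 9.46 and 16.0 with HIF-1α and 91.4 and 97.6 with HIF-2α, so equal calls can hide unequal ranks. Without HepG2 the difference was -8.33 points at TFRC and at CP and 0 at HMOX1. Adjusted p was 1 at each of these sites, which does not show that the isoforms bind them alike.

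The far FTH1 site, chr11:61779079-61782044, 45.7 kb upstream, was confined to the knockout experiment among the lists examined, with 12 of its 14 lists and none of the other 36. In wild-type cells it ranked 391 of 4537 and 160 of 6749 with HIF-2α and 525 of 6199 and 249 of 8279 with HIF-1β, but 1733 of 1913 and 1291 of 1535 with HIF-1α. It was thus in the top 10% of each HIF-2α and HIF-1β list and in the lowest 20% of each HIF-1α list. The difference between HepG2 and the kidney lines was -50 points and did not pass (adjusted p = 0.247, exact permutation test). The third upstream site, chr11:61783905-61785286, 49.4 kb from the gene, held 2 copies of the palindrome CACGTG and was called in 5 lists, all of the knockout experiment, from the top 39.6% (rank 2453 of 6199) to the top 96.1% (rank 6489 of 6749).

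HMOX1 encodes haem oxygenase 1, which frees iron from haem. Its upstream site, of the wider reading, was called in 29 lists: 6 of 6 in HepG2, RCC4 and wild-type HKC-8, 3 of 4 in HIF-1α knockout cells, 4 of 4 in HIF-2α knockout cells and 4 of 24 in the oxygen and time experiment. HepG2 ranks were 310 of 6171 and 351 of 3986 with HIF-1β, 339 of 3470 and 255 of 6851 with libraries labelled HIF-1α, and 322 of 5187 and 466 of 4499 with those labelled HIF-2α, within the top 3.72% to 10.4%. RCC4 ranks ran more widely, from the top 10.0% to the top 73.9%. At the promoter of HMOX1, by contrast, 1 list had a peak, RCC4 with HIF-1α replicate 1, at rank 4267 of 5680.

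**Figure D4:**
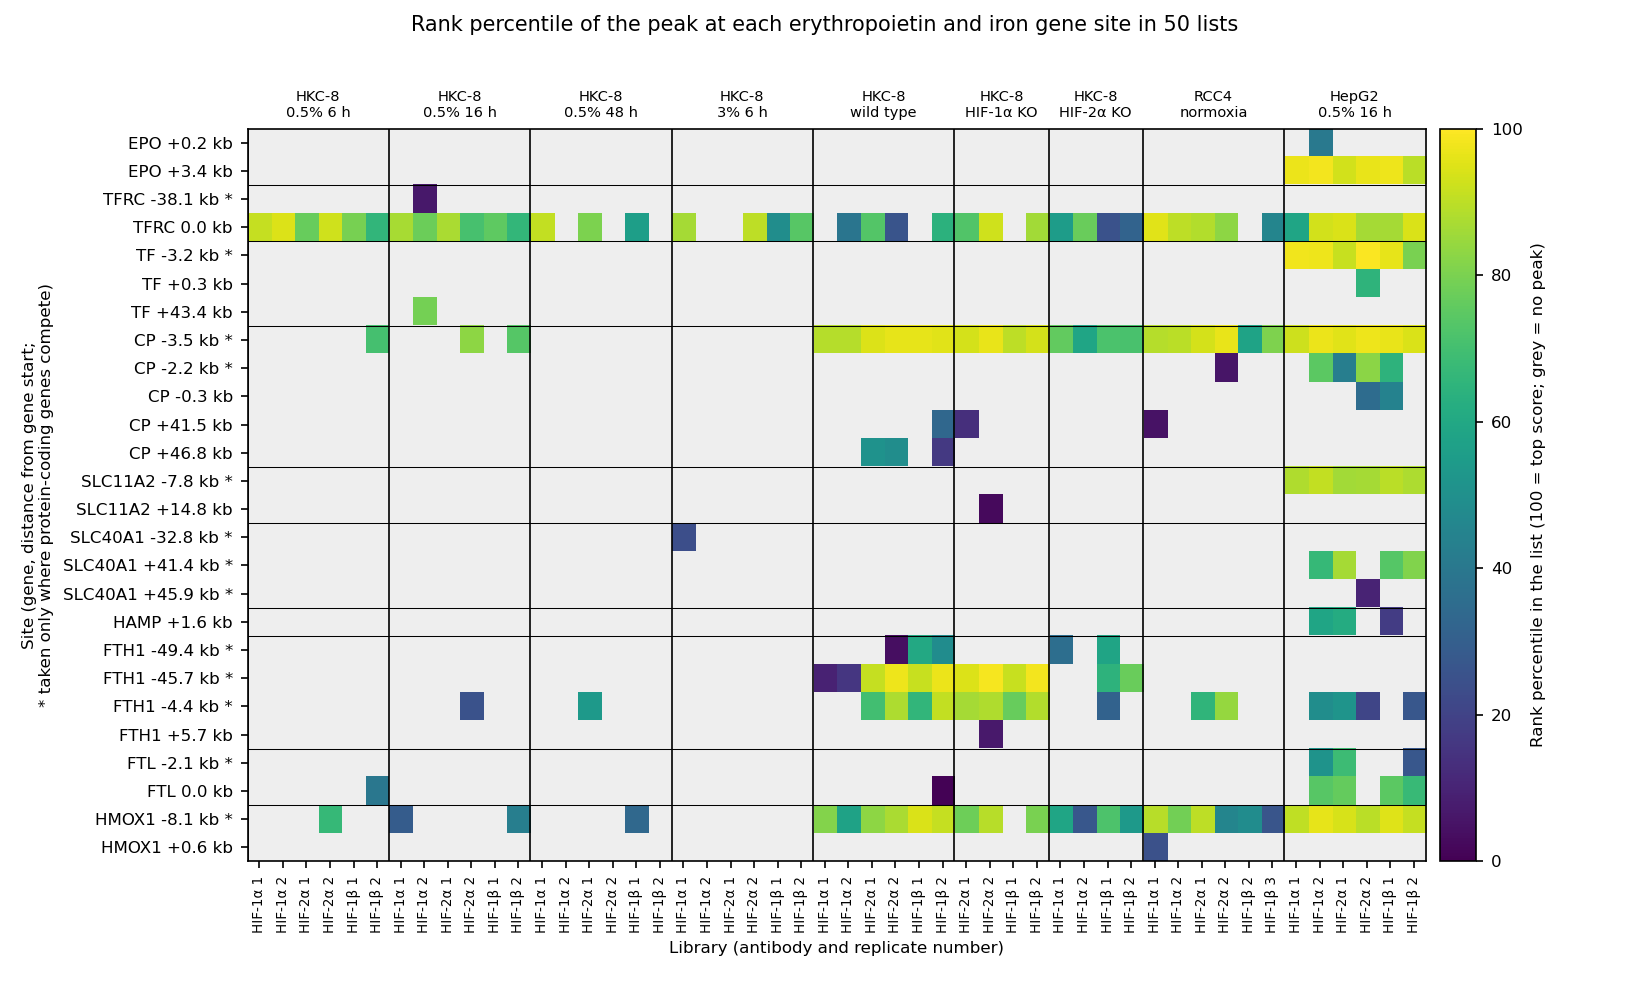
Rank percentile (100 for the top score of a list, grey for no peak) at all 26 sites of the 10 genes (rows, by distance from the gene start, * where the site is taken only if protein-coding genes compete) in 50 lists (columns, by condition, antibody and replicate number). TFRC was called in 41 lists and the CP and HMOX1 upstream sites in 29 each, whereas EPO, TF and SLC11A2 upstream or downstream sites fill the 6 HepG2 columns alone.

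The knockout clones were compared by value, since 2 lists against 2 cannot pass a test. At the far FTH1 site, HIF-2α in HIF-1α knockout cells ranked 285 of 5228 and 95 of 6540 and HIF-1β 287 of 3387 and 92 of 5786. In HIF-2α knockout cells neither HIF-1α list had the site, while HIF-1β had it at rank 902 of 2550 and 477 of 2085. HIF-1β percentiles there were 91.5 and 97.0 in wild-type, 91.6 and 98.4 in HIF-1α knockout and 64.7 and 77.2 in HIF-2α knockout cells. How many sites in the genome have a lower HIF-1β percentile in HIF-2α knockout cells was not counted. The lower percentile is thus not shown to be particular to this site or to those below.

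At the CP upstream site HIF-1β was also lowest in HIF-2α knockout cells, but here HIF-1α knockout cells stood below wild-type cells too. HIF-1β percentiles were 95.4 and 96.1 in wild-type, 89.9 and 93.4 in HIF-1α knockout and 71.4 and 71.7 in HIF-2α knockout cells. With HIF-1α they were 88.7 and 88.8 in wild-type and 58.7 and 75.8 in HIF-2α knockout cells, and with HIF-2α 94.6 and 96.5 in wild-type and 93.7 and 96.6 in HIF-1α knockout cells. The last pair overlapped. The HIF-2α knockout lists were also shorter (915 to 2550 peaks, against 1535 to 8279 in wild-type cells), and the part of list length in these percentiles was not tested.

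At TFRC the antibodies differed in order. HIF-1β had the site at percentiles 25.1 and 31.9 in HIF-2α knockout cells, against 64.2 in 1 of 2 wild-type lists and 86.3 in 1 of 2 HIF-1α knockout lists. HIF-1α had the site in both HIF-2α knockout lists, at percentiles 55.5 and 77.3, against 1 of 2 wild-type lists at 38.9. HIF-2α had it at 72.7 and 92.6 in HIF-1α knockout cells against 25.8 and 73.4 in wild-type cells, ranges that overlapped. At the near FTH1 site HIF-2α percentiles were 86.4 and 88.1 in HIF-1α knockout and 69.7 and 87.7 in wild-type cells, and HIF-1β had the site in 2 of 2 lists of wild-type cells and in 1 of 2, at percentile 31.6, of HIF-2α knockout cells. At the HMOX1 site HIF-1β stood at 91.3 and 94.3 in wild-type cells and at 54.1 and 71.9 in HIF-2α knockout cells, and 1 of 2 HIF-1β lists of HIF-1α knockout cells lacked the peak.

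**Figure D5:**
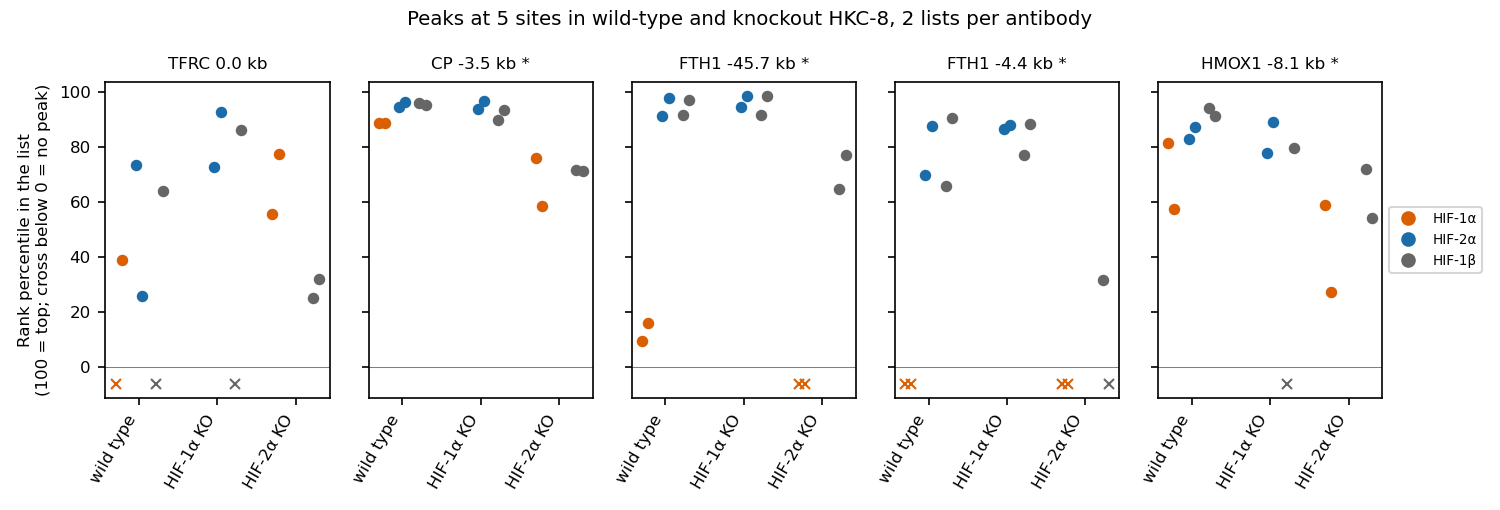
Rank percentile (100 for the top score) at 5 sites in wild-type, HIF-1α knockout and HIF-2α knockout HKC-8 cells, with 1 point per list coloured by antibody and crosses where no peak was called. HIF-1β at the far FTH1 site lies at 91.5 or above in wild-type and HIF-1α knockout cells and at 64.7 and 77.2 in HIF-2α knockout cells.

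Of 34 other genes of iron and haem metabolism, 21 had a peak when every gene competed (55.4% of all protein-coding genes did) and 24 when protein-coding genes did (62.1% of all). A site called in at least 10 lists was found at 7 and 8 of the 34, against 8.25% and 9.82% of all genes. CPOX, an enzyme of haem synthesis, had a promoter site in 25 lists, among them all 6 of HepG2, 3 of RCC4 and 16 of HKC-8. SLC25A37, the mitochondrial iron importer mitoferrin-1, had a site 12.7 kb inside the locus in 24 lists, 5 of RCC4 and 19 of HKC-8, and none of HepG2. The remaining named genes were HJV and SLC39A14 with 2 such sites each, NCOA4, SLC48A1 and ABCB6 with 1 each and, under the wider reading, PCBP1. At HJV and NCOA4 the calls were mostly HIF-1β. The HJV sites had HIF-1β in 10 of 11 and 9 of 12 lists and HIF-2α in 0. NCOA4 had HIF-1β in 8 of 10 lists and HIF-1α in 0.

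SLC25A37 was the only one of the 34 with a site that passed in the HepG2 comparison when every gene competed, with a difference of -91.7 points (adjusted p = 0.014, exact permutation test), of 11 sites tested. Of all 6380 sites, 2.77% were called lower in HepG2. Under the wider reading 1 of 13 sites, at PCBP1, passed as higher in HepG2. By the same reading, applied to this test after seeing the data, 4 of the 11 tested sites of the 10 genes were called higher in HepG2, those of EPO, TF, SLC11A2 and SLC40A1, against 15.6% of all sites, and none was called lower. These sites had 0 of 12 kidney calls and could be tested only through their HepG2 calls. SLC40A1, with the fewest calls that can be tested, still passed. The count is therefore no support for a HepG2 preference of these genes. No site of the 34 genes passed between HIF-1α and HIF-2α.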

How the data were processed

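ChIP-seq peak lists were analysed for 50 libraries of 25 groups, 2 per group, and inputs (16 samples) were left unused. According to the methods, the authors trimmed reads with TrimGalore 0.3.3, aligned them to GRCh37 (hg19) with BWA 0.7.5a-r405, dropped low-quality, blacklisted and duplicate reads (SAMtools 0.1.19, BEDTools 2.17.0, Picard 1.106) and called peaks with MACS and T-PIC, filtering those found by both on read count. The deposited lists carry MACS peak names numbered without gaps, so each MACS call is present. The deposited score of each peak, at least 50 in every list, was read as the -10 log10 p of MACS and used only as a rank within its list. Read depth is not given in the sources used here.

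Overlapping peaks of all lists (1 bp) were merged into sites with Python 3.11.15 and pandas 2.3.3, and genes were taken from GENCODE mapped to GRCh37. Sites with at least 4 calls among the libraries compared were tested by exact permutation of labels within condition or antibody, two-sided, with Benjamini-Hochberg adjustment over all sites at 0.05. Tests were first tried on simulated calls. For each gene, sites called in at least 4 lists are named, otherwise the most called, and other iron genes where a site was called in at least 10. The replicates are described as independent ChIP-seq experiments, with nothing further on the cultures in the sources used here. The sequence at 1 site is not reported here. The genes and lists were chosen with earlier results of these data known.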

Additional observations from a re-analysis of the deposited data

How the results depend on the processing

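The count of genes with a peak, 9, fell to 5 with a score of at least 100 and to 3 where both replicates of a group were required, and ranged from 6 to 8 with replicate 2 or 1 left out; it was within 1.5 times under the other settings. In the HepG2 comparison the 1 site that passed became 4 with protein-coding competitors, a reading applied to this test after seeing the data, and 2 with the upper 50% of each list, with a score of at least 100 and with rank percentiles. In the last settings 26.39%, 19.25% and 24.55% of all sites passed, in that order. The count was 0 without RCC4 and without wild-type HKC-8, and 0 to 0 with either replicate left out, but no site in the genome passed in these smaller designs, so the loss says nothing of these genes. The isoform count was 0 under each setting tried, while 0 to 182 sites in the genome passed (37 without HepG2). The oxygen and duration counts were also 0, but with the smallest p at 0.25 without a replicate and 0.0312 with the block these settings could hardly pass and show no stability. Replicate numbers are shared between groups, but same-numbered HIF-1α and HIF-2α libraries deviated together in RCC4 and at 48 h (correlations 0.416 and 0.396) but not in each of the 7 conditions (the other 5 from -0.445 in HepG2 to 0.0809), so the numbers were not taken to pair samples. With a replicate block the HepG2 count was 1 (EPO adjusted p = 0.0366, exact permutation) and the isoform count 0; with the HepG2 numbers crossed, chosen after seeing the data, the isoform count was also 0. Of 183 values for single sites, 170 kept their side of the threshold, 9 were lost, 4 passed anew and 0 reversed. Lists of few peaks limit what an absent call can show.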
